A study of Drosophila melanogaster with 16 samples.

Results

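Septate junctions seal the space between neighbouring epithelial cells of insects, and 10 of the genes that build them were followed here across the adult Drosophila melanogaster foregut. They were chosen by symbol and fall into 2 kinds. The 3 smooth septate junction genes are Snakeskin (Ssk), mesh and Tetraspanin 2A (Tsp2A), and the 7 pleated ones are coracle (cora), Neurexin IV (Nrx-IV), sinuous (sinu), kune-kune (kune), Macroglobulin complement-related (Mcr), Neuroglian (Nrg) and Lachesin (Lac). All 10 were found among the 13619 protein-coding genes of the tables. The 16 libraries were bulk RNA from pooled tissue of adult mated Canton-S females, all reared axenically. The 4 groups were proventriculus (PV) from flies kept axenic (5 libraries) and PV (5 libraries), crop (3 libraries) and salivary gland (SG, 3 libraries) from flies that were given the Lactiplantibacillus plantarum strain LpWF once adult. Their age was not given. The PV samples were cut with as little crop duct as possible, whereas the crop samples included the ducts. PV and crop RNA was extracted with RNeasy and depleted of ribosomal RNA, and SG RNA was extracted with TRIzol and selected for poly(A), so tissue and preparation cannot be told apart where SG is compared with the others.

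The 2 kinds of junction differ for the most part, though not without exception, by the origin of the epithelium. Pleated septate junctions are the form of ectodermal epithelia, such as the foregut, the trachea and the salivary gland, and also seal the glia of the blood-brain barrier. Smooth septate junctions are the form of endodermal epithelia, above all the midgut. The PV is a valve at the border of these tissues, where the foregut tube is folded into a wall of endodermal cells that secrete the peritrophic matrix, and the crop is a muscular, cuticle-lined outpocketing of the foregut. In the smooth junction, Ssk, a small multi-pass membrane protein, Mesh, a single-pass membrane protein with a large extracellular part, and the tetraspanin Tsp2A depend on each other for their place at the junction. In the pleated junction, Nrx-IV, Nrg and Lac are adhesion proteins, and sinu and kune encode claudin-like proteins. Mcr is a member of the alpha-macroglobulin family that acts at the junction, and Cora is the cytoplasmic FERM protein that binds Nrx-IV.

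On genome build BDGP6 the smooth genes lie on separate chromosome arms. Ssk (FBgn0036945) is at 3L:20188522-20189779 on the plus strand, mesh (FBgn0051004) at 3R:31178389-31195762 on the minus strand and Tsp2A (FBgn0024361) at X:1346553-1348143 on the plus strand. Of the pleated genes, cora (FBgn0010434) is at 2R:19229063-19243751, kune (FBgn0033032) at 2R:5671741-5672800 and Lac (FBgn0010238) at 2R:12453190-12465630, all on the plus strand. Nrx-IV (FBgn0013997) is at 3L:12146519-12156990 on the plus strand, sinu (FBgn0010894) at 3L:5559470-5561598 on the minus strand, Mcr (FBgn0267488) at 2L:8074117-8082982 on the minus strand and Nrg (FBgn0264975) at X:8517373-8555170 on the plus strand. Each is an annotated protein-coding gene. The spans of 6 of them overlap another gene, and of these Mcr alone shares exonic bases with it, 124 bases with an antisense RNA that had a mean of at most 0.667 counts in any group.

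Reads on genes ran from 18186391 to 45500807 per library. Levels are given as coding TPM, the deposited TPM values summed per gene and rescaled so that protein-coding genes total 1000000 in each library, which makes levels comparable between genes of different length. This removes noncoding RNA but not the weight of a few very abundant messages, since the 10 highest genes held 12.2 to 15.5% of coding TPM in crop, 38.2 to 50.9% in PV and 87.7 to 89.2% in SG. The median tested gene stood 0.99 log2 units higher in crop than in PV with LpWF on this scale, and 4.16 and 3.18 log2 units lower in SG than in crop and in PV with LpWF. Fold changes were taken from edgeR with TMM normalization, where the same medians were 0.01, -0.04 and -0.14, and these are changes relative to the bulk of the genes. The labels were checked against markers. Of the 7 salivary gland markers, the gland transcription factor sage was at 24.0 to 25.4 coding TPM in the SG libraries and at most 1.86 in the others, while PH4alphaSG1 was at or near 0 in all libraries. In edgeR 5 of them were tested, and 4 were higher and 1 lower in SG than in crop and in PV with LpWF. The lower one was Jhbp14, whose reporter labelled SG in the study, at log2 fold changes of -3.39 and -2.18. The 8 midgut markers summed to 8424 to 22576 coding TPM in PV, 430 to 3134 in crop and at most 5.22 in SG. Most of the PV sum was Amy-p and betaTry, with means of 10798 and 5626 with LpWF. In edgeR 4 of the 8 were lower in crop than in PV with LpWF and 4 did not pass. On coding TPM the crop libraries were at 218 to 284% of the PV LpWF mean for Myo31DF. The 9 visceral muscle markers summed to 17463 to 20539 in crop, 1286 to 1755 in PV and at most 9.46 in SG. In bulk samples such as these, fewer cells of a type and less RNA per cell cannot be told apart.

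Among these tissues the smooth junction genes were highest in PV. Ssk stood at 171, 200, 242, 136 and 154 coding TPM in the axenic PV libraries and at 235, 320, 272, 219 and 136 in those with LpWF. In the crop it was at 13.1, 27.5 and 12.9 coding TPM, and in SG at 0.0146, 0.0356 and 0.0506. Every PV library was above every crop library and every crop library above every SG library, while the PV groups overlapped. Of the genes compared, 8.91% were lower in crop than in PV with LpWF without overlap, and 96.7% were lower in SG than in crop. By its mean in PV with LpWF, Ssk ranked 345 among protein-coding genes, against 4843 in crop.

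Mesh followed the same order at a lower level. It stood at 66.9, 64.8, 84.3, 53.6 and 57.3 coding TPM in axenic PVs and at 85.6, 114, 96.5, 92.6 and 55.7 in PVs with LpWF. The crop libraries were at 5.00, 12.3 and 3.31 coding TPM, with replicate 2 again the highest, and the SG libraries at 0.00575, 0.0274 and 0.0146. Tsp2A was at 72.5, 72.9, 85.8, 45.0 and 47.8 coding TPM in axenic PVs, at 85.4, 106, 92.8, 81.6 and 45.4 with LpWF, at 3.39, 5.51 and 2.82 in crop and at 0.0228, 0.0818 and 0.0218 in SG. Within a PV library the genes kept a narrow proportion to each other: Ssk was 2.37 to 3.08 times mesh, and Tsp2A 0.814 to 1.12 times mesh, over the 10 libraries. In SG the values rest on 1, 3 and 4 estimated counts for Ssk, 3, 16 and 8 for mesh and 2, 8 and 2 for Tsp2A.

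**Figure D1:**
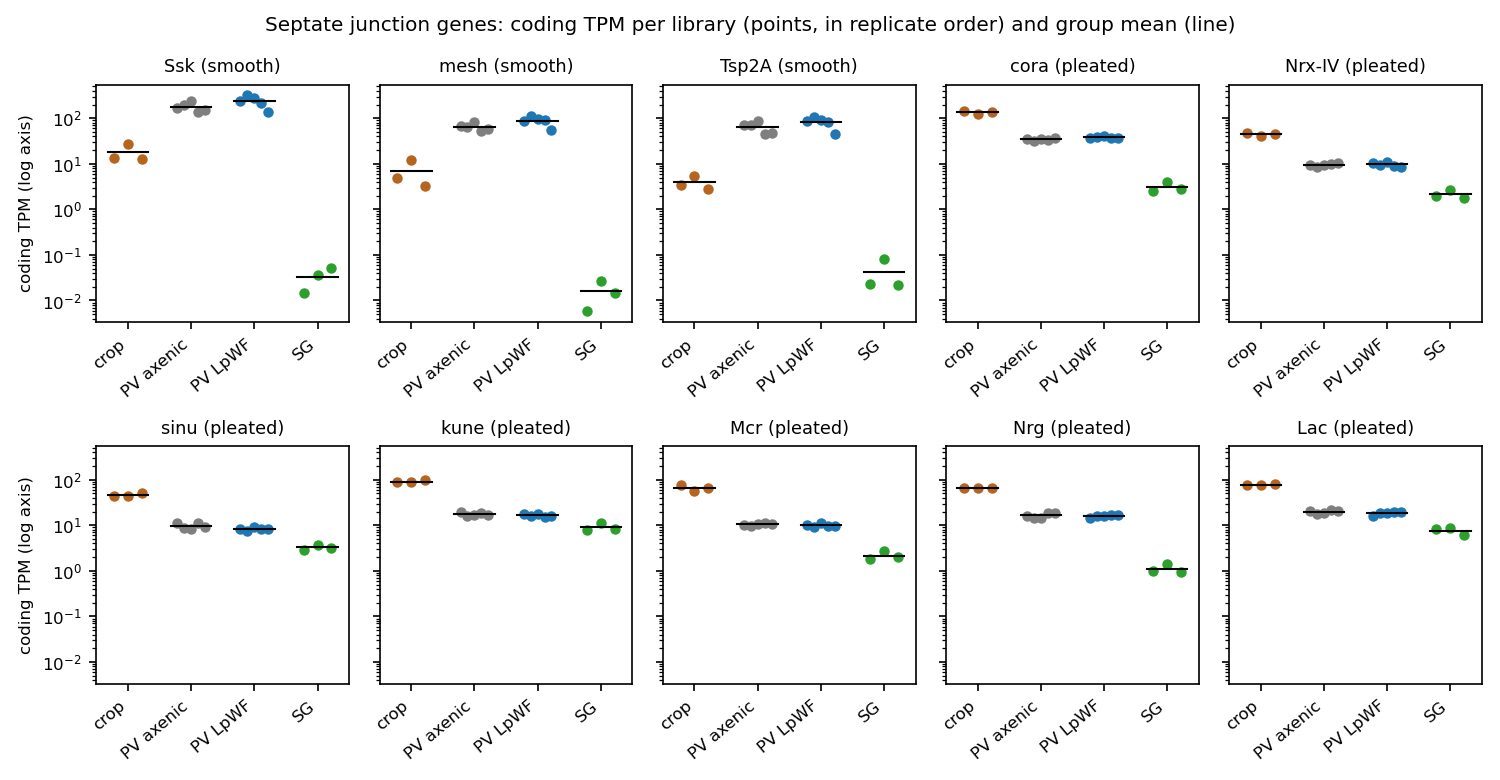
Coding TPM of each member (log axis) in the 16 libraries, as points in replicate order, with the mean of each group as a line. The 3 smooth genes were highest in PV, with Ssk at 136 to 320 coding TPM there, and the 7 pleated genes were highest in crop.

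On coding TPM the pleated genes were highest in crop, followed by PV and then SG. Cora, the most abundant of them in crop, stood at 141, 126 and 138 coding TPM there, at 31.5 to 37.3 in axenic PVs, at 36.1 to 41.01 in PVs with LpWF and at 2.51 to 3.96 in SG. Kune had 87.5, 87.7 and 97.7 coding TPM in crop and 15.6 to 19.96 in the PV libraries, and Lac had 76.3, 78.5 and 81.5 in crop, a mean of 19.8 ± 1.91 (SD, n = 5) in axenic PVs and 16.04 to 19.7 with LpWF. Both led the 7 pleated members in SG, at 7.91, 11.0 and 8.17 coding TPM for kune and 8.31, 8.63 and 6.03 for Lac. For all 7 pleated genes the crop libraries lay above all PV libraries and the PV libraries above all SG libraries. Much of this order is that of the scale. Against PV with LpWF, 69.7% of the genes compared were higher in crop without overlap, and 95.1% were lower in SG. Relative to the bulk of the genes, kune, Lac and sinu were higher in SG than in crop, as given below.

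Nrg stood at 67.0, 67.2 and 64.9 coding TPM in crop and at 14.2 to 18.9 in PV, and Mcr at 75.2, 55.4 and 66.5 in crop and at 9.37 to 11.3 in PV. Nrx-IV was at 47.3, 40.6 and 44.3 coding TPM in crop and at 8.56 to 11.2 in PV, and sinu at 43.0, 45.0 and 51.8 in crop and at 7.62 to 11.2 in PV. In SG these were low on this scale: 1.81 to 2.66 coding TPM for Nrx-IV, 2.89 to 3.76 for sinu, 1.80 to 2.70 for Mcr and 0.935 to 1.43 for Nrg. By group mean in PV with LpWF the order was Ssk, mesh, Tsp2A, cora, Lac, kune, Nrg, Mcr, Nrx-IV and sinu, in which mesh and Tsp2A, Lac and kune, kune and Nrg, Mcr and Nrx-IV, and Nrx-IV and sinu overlapped. In crop the order was cora, kune, Lac, Nrg, Mcr, sinu, Nrx-IV, Ssk, mesh and Tsp2A, in which Nrg and Mcr, sinu and Nrx-IV, and mesh and Tsp2A overlapped.

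The comparison of crop with PV from flies with LpWF sets an organ of foregut origin beside the organ at the foregut and midgut border, in flies of the same treatment and with the same kit. All 3 smooth genes were lower and all 7 pleated genes higher in crop. In the edgeR quasi-likelihood test with Benjamini-Hochberg adjustment, 10 of 10 members passed an adjusted p under 0.05, in a comparison in which 51.6% of the 9713 genes tested passed, 26.1% of them higher and 25.5% lower in crop. Ssk had a log2 fold change of -4.66 (SE 0.39, adjusted p = 3.46e-05), mesh of -4.63 (SE 0.53, adjusted p = 0.000264) and Tsp2A of -5.42 (SE 0.36, adjusted p = 4.65e-06). These are 25.3-fold, 24.7-fold and 42.7-fold lower levels relative to the bulk of the genes, and 13.3-fold, 12.9-fold and 21.1-fold lower coding TPM.

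Among the pleated genes Mcr changed the most, with a log2 fold change of 1.73 (SE 0.10, adjusted p = 7.60e-07, edgeR). Then came sinu at 1.47 (SE 0.10) and kune at 1.45 (SE 0.09), the claudin-like genes, Nrx-IV at 1.20 (SE 0.07), Nrg at 1.09 (SE 0.09), Lac at 1.09 (SE 0.11) and cora at 0.85 (SE 0.07). Their adjusted p-values ran from 7.60e-07 to 2.54e-05. As a fold this was 1.80 for cora to 3.32 for Mcr, against 3.55 to 6.58 on coding TPM, where the median gene itself was 1.98-fold higher. On coding TPM the crop and PV libraries did not overlap for any of the 10, and neither did they for 69.7% of the genes in the direction of the pleated members and 8.91% in that of the smooth ones.

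**Figure D2:**
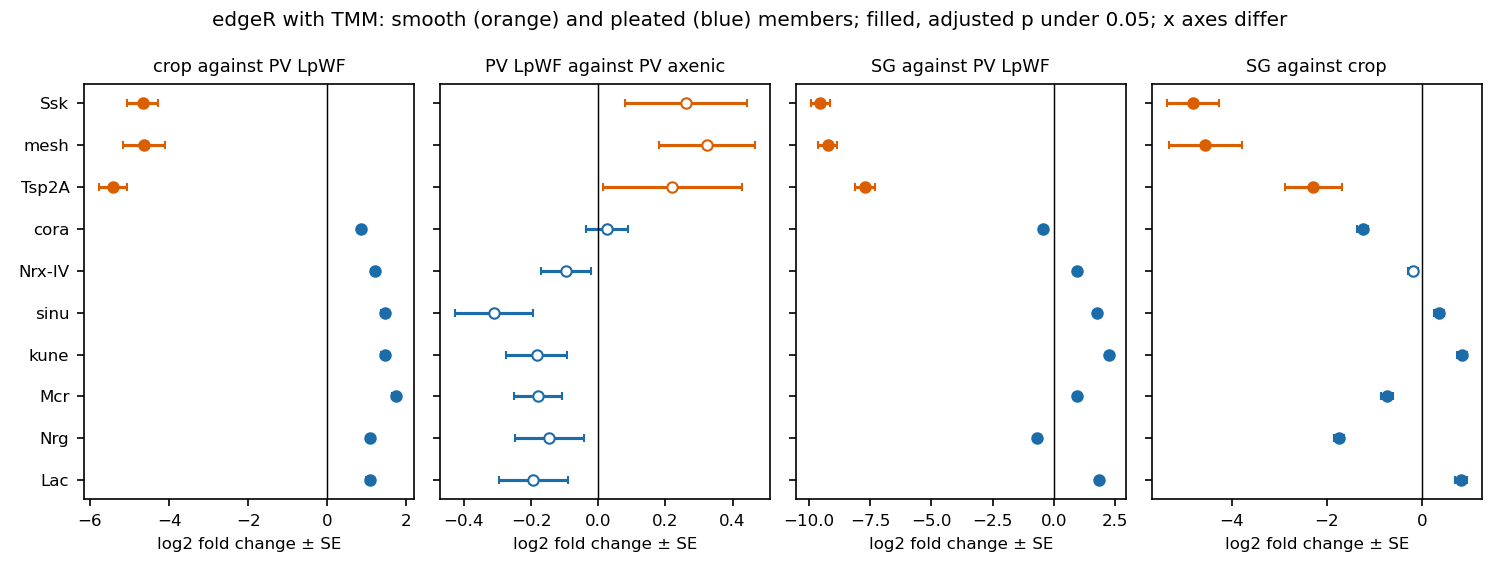
Log2 fold change with SE (edgeR, TMM) of the smooth (orange) and pleated (blue) members in the 4 comparisons, with filled symbols at an adjusted p under 0.05 and separate x axes. In crop against PV the smooth genes were at -4.63 to -5.42 and the pleated ones at 0.85 to 1.73. None of the 10 passed in PV with LpWF against axenic PV. The positive SG values against crop reverse sign on coding TPM, with or without the 10 highest genes of each library, and those against PV LpWF reverse on coding TPM with these genes kept in. On each of these scales the median tested gene was also lower in SG.

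Crop replicate 2 stood apart for the smooth genes. Their levels were 5.54, 11.6 and 5.47% of the PV LpWF mean for Ssk in crop replicates 1, 2 and 3, 5.63, 13.8 and 3.73% for mesh and 4.12, 6.69 and 3.43% for Tsp2A. The smooth junction gene hoka, which was not among the 3, was at 3.66, 19.8 and 5.12%. Markers of the PV wall and midgut moved with this library in part. It was the highest crop library for 3 of 8 midgut markers, among them the endodermal transcription factor GATAe (7.55, 27.8 and 6.23% of the PV LpWF mean) and Amy-p, an amylase (2.47, 22.2 and 4.21%), but not for mex1, lab, betaTry, Npc1b and Myo31DF. It was the highest for 4 of 8 genes whose reporters the study used to mark PV and esophagus, but not for bond, to, CG15120 and sob. The 4 were CG43673, CG8560, Nox (3.57, 19.1 and 1.55%), an NADPH oxidase gene, and CG4267, which was at 639 to 752% in all crop libraries. Crop replicate 2 was also the highest for all 7 neuron markers and the 3 fat body markers detected in crop.

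Without that library the crop levels of Ssk, mesh and Tsp2A were 35.4-fold, 41.9-fold and 56.1-fold below PV with LpWF in edgeR. All 10 members still passed, in a fit in which 4472 of the 10001 genes tested passed. The difference in mesh thus moved by over 1.5 times, while those of the pleated members stayed between 0.87 and 1.82 on the log2 scale. The part of other tissue in the smooth signal of the crop was not tested. Muscle and tracheal markers moved with the pleated genes: in crop all 9 visceral muscle markers rose, with a median log2 fold change of 2.73, and 5 of 6 trachea markers rose, with a median of 2.02. Their part in the pleated signal was not tested either.

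**Figure D3:**
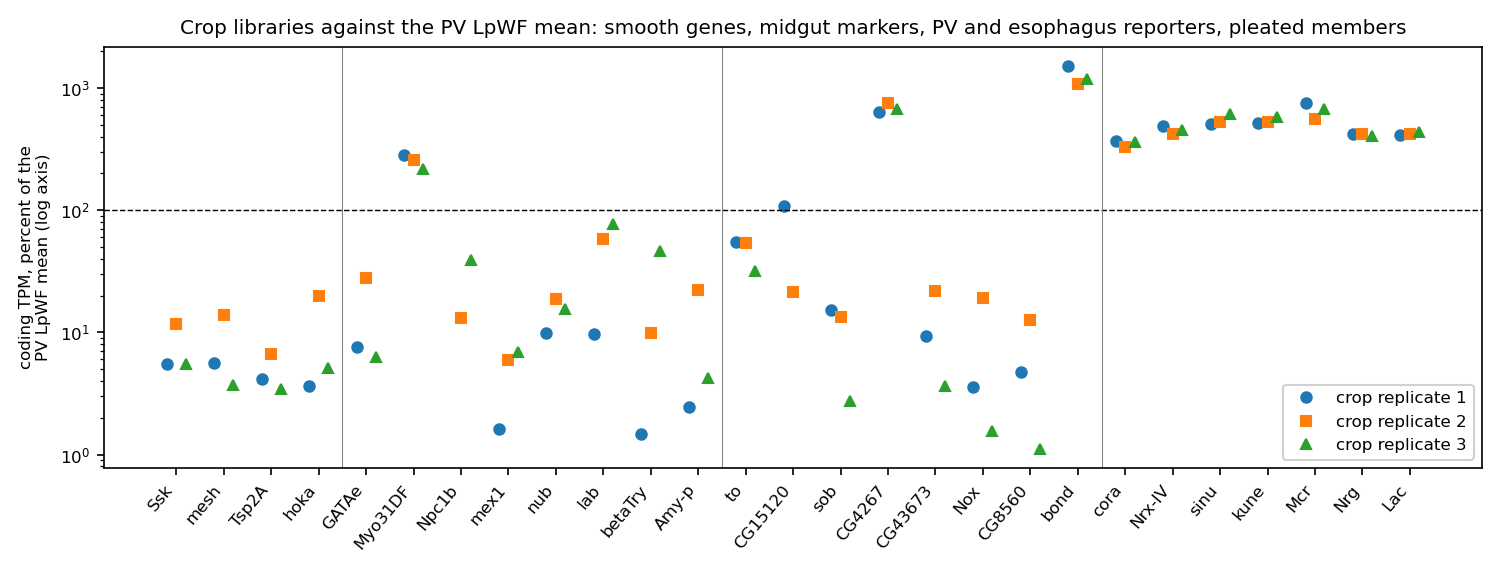
Coding TPM of each crop library as a percent of the mean of the 5 PV LpWF libraries (log axis, dashed line at 100), for the smooth genes with hoka, the 8 midgut markers, 8 reporter genes of PV and esophagus, and the pleated members. Crop replicate 2 (squares) was the highest for all smooth genes, at 6.69 to 19.8%, whereas the pleated genes were at 332 to 754% in all libraries. A level of 0 is not drawn.

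Other genes of the same structures followed the members to different degrees. Hoka, a small membrane protein of the smooth junction, was lower in crop by a log2 fold change of -4.37 (SE 0.63, adjusted p = 0.000854, edgeR), close to Ssk and mesh, and of -5.51 without crop replicate 2. Of 13 further pleated junction genes 11 were higher in crop, 1 was lower and 1 did not pass, with a median of 1.56 against 0.01 for all genes tested. The highest was nrv2 at 2.00 (SE 0.11), a beta subunit of the sodium pump, followed by the adhesion protein Cont at 1.90 (SE 0.10) and the tracheal size gene pasi2 at 1.88 (SE 0.15). The gene that was lower was Atpalpha, the catalytic subunit of the same pump, at -0.99 (SE 0.10, adjusted p = 3.98e-05), and the other beta subunit gene, nrv1, was at -0.13 (SE 0.10, adjusted p = 0.321). On coding TPM the crop libraries were at 91.1 to 102% of the PV LpWF mean for Atpalpha and at 169 to 177% for nrv1. The sodium pump also serves cells outside the junction, and both genes were abundant in PV, at 192 and 208 mean coding TPM with LpWF.

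The list of the junction where 3 cells meet holds 3 genes. None was higher in crop in edgeR. Gli, which encodes the transmembrane protein Gliotactin, was lower at -1.59 (SE 0.12, adjusted p = 3.64e-06), and M6 was lower at -0.25 (SE 0.09, adjusted p = 0.0354) in edgeR, where 25.5% of all genes were lower. On coding TPM the crop libraries were at 59.3 to 70.3% of the PV LpWF mean for Gli, but at 148 to 176% for M6 and 175 to 183% for bark. Without crop replicate 2, 1 of the 3 genes was lower. Of 5 genes of lateral polarity and scaffold 3 were higher, led by dlg1 at 1.36 (SE 0.08). Of 13 genes of adherens junctions and the apical domain 7 were higher and 5 lower. The ZO-1 relative pyd had the largest change at 2.97 (SE 0.10), and shg, the E-cadherin gene, was the lowest at -0.52 (SE 0.09), but all 5 that were lower in edgeR stood above the PV LpWF mean on coding TPM.

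Set side by side within each library, the members were also taken as shares of their sum, which depend on the genes chosen. The 13 other pleated junction genes, outside this sum, had medians of 515 and 583 coding TPM in axenic PVs and in PVs with LpWF. Hoka, also outside it, had medians of 85.8 and 100. The shares thus do not show which kind prevailed over all junction genes. The 10 genes summed to 361 to 525.8 coding TPM in axenic PVs, 351 to 657 in PVs with LpWF, 546 to 564 in crop and 25.1 to 34.3 in SG. The smooth genes made up 71.8% ± 5.57 (SD, n = 5) of this sum in axenic PVs, and after LpWF 76.7% ± 5.53 (SD, n = 5). In crop they made up 5.17% ± 2.71 (SD, n = 3), and in SG 0.311% ± 0.133 (SD, n = 3). By library the crops were at 3.85, 8.29 and 3.38%. Between PV and crop the sum of the 10 genes overlapped, while the share of the smooth genes did not: the lowest PV library was at 65.1% and the highest crop library at 8.29%.

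The make-up of the pleated part also differed between crop and SG. Cora held 23.1 to 25.2% of the sum of the 10 genes in crop and 9.51 to 11.5% in SG. Nrg held 11.5 to 12.3% in crop and 3.72 to 4.17% in SG, and Mcr 10.1 to 13.5% in crop and 6.82 to 8.04% in SG. Kune had the opposite order, from 15.7 to 17.3% in crop to 29.9 to 32.5% in SG, as did Lac, from 13.7 to 14.5% to 24.0 to 31.4%. These 2 genes thus held most of the sum of the 10 members in SG. The 13 other pleated genes, outside that sum, were at 120 to 161 summed coding TPM in SG. Sinu was at 7.70 to 9.17% in crop and 10.9 to 12.8% in SG. Nrx-IV overlapped, at 7.45 to 8.47% in crop and 7.21 to 7.75% in SG. Shares of 1 sum are not independent of each other, and these were not tested.

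**Figure D4:**
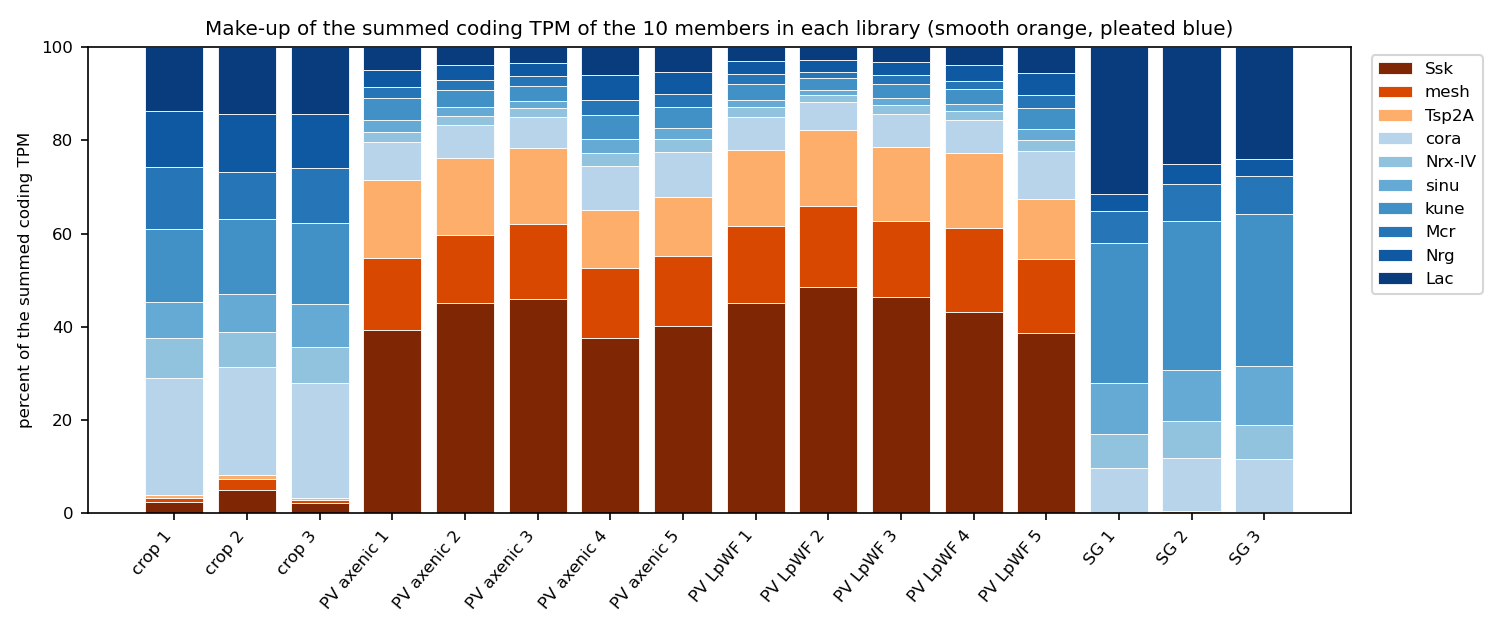
Percent of the summed coding TPM of the 10 members held by each member in every library, with smooth genes in orange and pleated genes in blue. The smooth genes held 65.1 to 82.1% in PV, 3.38 to 8.29% in crop and under 0.5% in SG, where kune and Lac were the largest parts.

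The comparison of PV with LpWF and axenic PV asks whether the bacterium given to adults was followed by a change in the organ that it meets early. No member passed the test: 0 of 10 had an adjusted p under 0.05 in edgeR, against 0.0107% of the 9360 genes, which is 1 gene, while 908 genes had an unadjusted p under 0.05. The smooth genes had small positive values, with log2 fold changes of 0.26 (SE 0.18, adjusted p = 0.68) for Ssk, 0.32 (SE 0.14, adjusted p = 0.50) for mesh and 0.22 (SE 0.21, adjusted p = 0.77) for Tsp2A. Of the pleated genes cora was at 0.03 (SE 0.06, adjusted p = 0.93), and the others were between -0.10 for Nrx-IV and -0.31 (SE 0.12, adjusted p = 0.50) for sinu. Before adjustment, sinu, Mcr and mesh were among the genes under 0.05. The coding TPM of the PV groups overlapped for all 10 members, while it did not overlap for 1.7% of the genes in the direction of higher levels with LpWF and 0.313% in that of lower levels. DESeq2, which called 51 genes, called no member either.

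On coding TPM the spread between PV libraries was wider for the smooth genes than for the pleated ones. Their coefficients of variation were 18.2 to 27.2% in axenic PVs and 23.9 to 28.9% in PVs with LpWF, against 6.36 to 14.5% and 5.68 to 10.3% for the pleated genes. Over the 10 libraries the highest level was 2.12 to 2.36 times the lowest for the smooth genes, 1.65 times for hoka and 1.21 to 1.47 times for the pleated genes. The lowest sums of Ssk, mesh and Tsp2A were in axenic replicates 4 and 5 (235 and 259 coding TPM) and in LpWF replicate 5 (237 coding TPM), and the highest in LpWF replicate 2 (540 coding TPM). The same 3 low libraries had the largest share of coding TPM in their 10 highest genes, 49.4 to 50.9% against 38.2 to 43.9% in the other 7. On the scale without these genes the span was narrower, from 269 to 517 for Ssk, 106 to 184 for mesh and 89.0 to 172 for Tsp2A. Axenic replicate 4 was the lowest for all 3 there, but the next lowest was LpWF replicate 5 for Ssk and Tsp2A and axenic replicate 2 for mesh. The pleated gene sinu ran from 12.3 to 22.1 on that scale. In axenic PVs mesh was at 118 ± 12.4, Ssk at 325 ± 49.4 and Tsp2A at 116 ± 22.6 there (SD, n = 5). Of the pleated genes Nrg was at 30.4 ± 6.40, sinu at 17.9 ± 3.55 and cora at 63.6 ± 7.95 (SD, n = 5). Relative to the mean, the spread of the 2 kinds thus overlapped in axenic PVs on that scale. With LpWF the smooth genes still varied more, as in mesh at 152 ± 25.5 against Lac at 32.4 ± 4.69 (SD, n = 5).

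Ribosomal RNA took 13.1 to 33.8% of the reads of a PV library and was over 25% in axenic replicate 4 and LpWF replicates 4 and 5. Within the 7 libraries at or under 25%, the log2 fold changes with LpWF were 0.35 for Ssk, 0.37 for mesh and 0.28 for Tsp2A, with 4 axenic and 3 LpWF libraries. The 3 libraries above it hold a single axenic one, so no comparison is drawn within them. Among the pleated genes Lac had 1 library apart, LpWF replicate 1 at 16.04 coding TPM, with the other 4 of that group at 18.9 to 19.7. None of the 35 other junction genes passed in this comparison, and neither did any of the cell type markers tested. The 7 midgut markers tested had a median log2 fold change of 0.35 with LpWF, from -0.15 for Amy-p to 1.14 for mex1. The part of endodermal tissue in the small smooth values was not tested.

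In SG the smooth genes were close to absent and the pleated genes were present, at 25.03 to 34.1 summed coding TPM for the 7. Against crop, 9 of 10 members passed in edgeR, in a comparison in which 76.1% of the 9064 genes tested passed, 36.6% of them higher and 39.5% lower in SG. The smooth genes were lower, at -4.82 (SE 0.55) for Ssk, -4.56 (SE 0.77) for mesh and -2.28 (SE 0.61) for Tsp2A on the log2 scale, values that rest on the few SG counts and on the prior count of the fit. Without crop replicate 2 mesh was at -3.81. Of the pleated genes kune at 0.85 (SE 0.10, adjusted p = 4.14e-05), Lac at 0.83 (SE 0.13, adjusted p = 0.000209) and sinu at 0.36 (SE 0.11, adjusted p = 0.0111) were higher in SG relative to the bulk of the genes, but lower on coding TPM and on coding TPM without the 10 highest genes. On the last scale the median tested gene was itself 1.23 log2 units lower in SG than in crop. Less that median, kune, Lac and sinu were at 0.82, 0.79 and 0.33. Nrg at -1.73 (SE 0.11), cora at -1.24 (SE 0.12) and Mcr at -0.73 (SE 0.13) were lower in SG on all of these scales, and Nrx-IV at -0.18 (SE 0.11, adjusted p = 0.146) did not pass.

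The call on sinu was lost (adjusted p = 0.23, edgeR) when genes were required to have 10 counts in every library, a filter that leaves no smooth gene in the test. That on Nrx-IV was gained under the same filter (adjusted p = 0.0075), with DESeq2 size factors (0.0438), with DESeq2 (0.034) and without SG replicate 2 (0.0346). The 13 other pleated genes divided as 9 higher, 3 lower and 1 not passing. Crim, which encodes a Ly6-type protein, was the highest at 1.79 (SE 0.10), followed by the claudin-like gene pck at 1.48 (SE 0.09) and crok, another Ly6-type gene, at 1.42 (SE 0.11). The lowest were bou, of the same Ly6 family, at -1.48 (SE 0.14) and nrv2 at -1.23 (SE 0.11). On coding TPM all 10 members and all genes named here were lower in every SG library than in every crop library, as were 96.7% of the genes compared.

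Against PV with LpWF, 10 of 10 members passed in edgeR, where 76.5% of 9487 genes passed, 35.2% of them higher and 41.3% lower in SG. The smooth genes were lower by log2 fold changes of -7.72 to -9.54. Kune at 2.25 (SE 0.10), Lac at 1.86 (SE 0.12), sinu at 1.78 (SE 0.10), Nrx-IV at 0.96 (SE 0.10) and Mcr at 0.95 (SE 0.10) were higher in SG, and all 5 reversed on coding TPM. Without the 10 highest genes of each library their means were higher in SG by 1.44, 1.06, 0.97, 0.16 and 0.14 log2 units, but the libraries of SG and PV overlapped for Nrx-IV and Mcr. The median tested gene was 0.83 log2 units lower in SG on that scale. Nrg at -0.70 (SE 0.11) and cora at -0.44 (SE 0.11) were lower on each scale. Of the 13 other pleated genes 11 were higher, led by crok at 3.10 (SE 0.12), and bou alone was lower, at -0.74 (SE 0.13), while hoka was at -6.99 (SE 0.24). The 5 lateral polarity and scaffold genes held none that was higher in SG and 3 that were lower, among them l(2)gl at -2.27 (SE 0.14). On coding TPM all 10 members were lower in every SG library than in every PV LpWF library, as were 95.1% of the genes compared, and the mean of crok was also lower in SG, at 4.81 against 5.01.

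For 4 members the annotation holds transcripts with different coding sequences, and the share of each was taken from the TPM of its transcripts. In Nrg the leading class of 1239 codons, the form with the short cytoplasmic tail that epithelia use, held 74.3, 70.9 and 78.5% in crop and 64.4, 72.9, 66.0, 65.4 and 58.3% in PVs with LpWF. These ranges overlapped, and the difference of 9.19 percentage points had p = 0.0714 in an exact two-sided permutation test, where 0.0357 is the smallest p possible. The class of 1302 codons, whose longer tail is known from neurons, held 8.64 to 15.4% in crop, 19.6 to 35.3% in PVs with LpWF and 15.6 to 38.8% in SG. A further class of 1309 codons held 10.3 to 14.8% in crop, 0.306 to 12.0% in PVs with LpWF and at most 5.55% in SG. Summed neuron markers were at 16.3 to 23.0 coding TPM in crop, 7.65 to 15.8 in PVs with LpWF and 0.183 to 0.342 in SG.

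Nrx-IV has 2 coding sequences of equal length. The leading transcript, Nrx-IV-RB, held 96.6, 87.5 and 92.3% in crop and 80.9, 85.8, 64.7, 76.8 and 80.6% in PVs with LpWF, 92.1% ± 4.55 (SD, n = 3) against 77.7% ± 7.96 (SD, n = 5). The libraries did not overlap, and the exact permutation p was 0.0357, the smallest possible, and 0.286 after adjustment over the 8 such tests. In SG it held 99.3 to 100% of the gene. For cora the class of 1698 codons held 66.9% ± 1.65 (SD, n = 3) in crop and 67.5% ± 7.53 (SD, n = 5) in the LpWF group of PVs, and that of 1600 codons 32.8% and 28.7%. For mesh the class of 1454 codons held 92.5, 89.1 and 49.2% in crop, from 392, 719 and 238 estimated counts of the gene. In PVs with LpWF it held 55.3% ± 4.23 (SD, n = 5), which overlapped the crop. Between PVs with LpWF and axenic PVs the exact p was 0.222 to 0.921 over the 4 genes, and none of the 8 tests passed after adjustment. SG shares were not tested, because poly(A) selection changes coverage along transcripts.

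**Figure D5:**
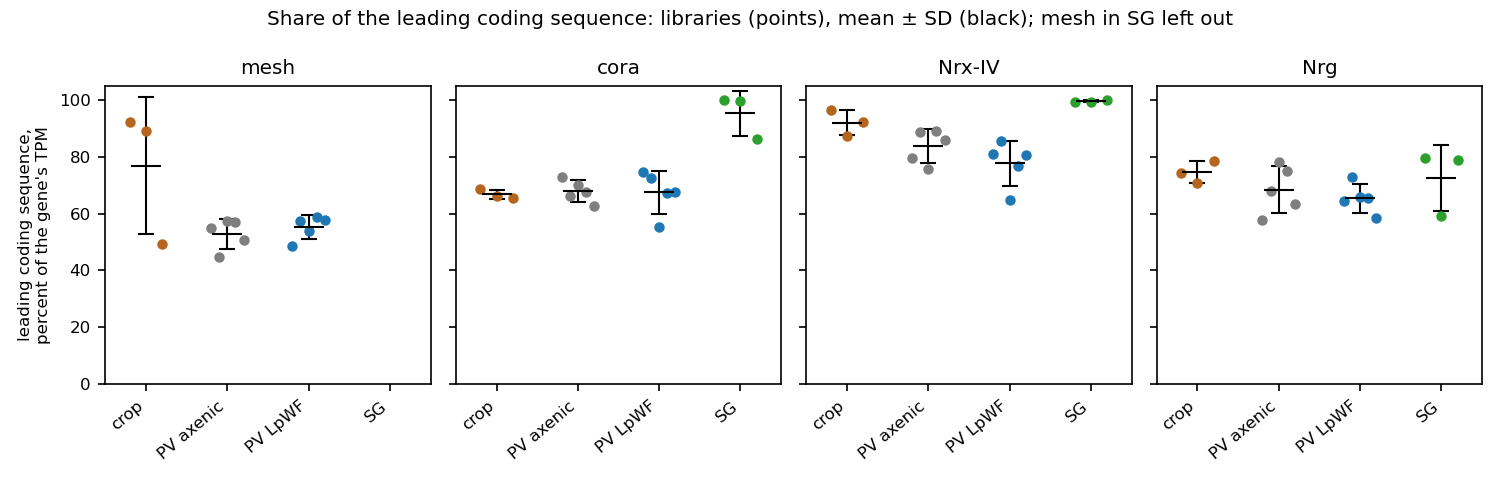
Share of the leading coding sequence in the TPM of mesh, cora, Nrx-IV and Nrg, by library (points) with mean and SD (black). Nrx-IV in crop (87.5 to 96.6%) lay above PV with LpWF (64.7 to 85.8%), and the cora values of crop lay within those of PV with LpWF (55.3 to 74.6%). SG is left out for mesh, which had 27 estimated counts there in all.

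Genes with a profile like that of the members were named by the Pearson correlation of log2(coding TPM + 1) over the 16 libraries, among 7534 protein-coding genes with a mean coding TPM of at least 5 in some group. This is a description, since the points share groups, kits and depth. Nearest to the mean profile of Ssk, mesh and Tsp2A were CG9380, CG3987, Oatp33Eb, Itgbn and Whamy, with r from 0.997 to 0.999. Mean coding TPM of CG9380 was 73.6 in PVs with LpWF, 6.30 in crop and 0.0121 in SG. Itgbn, an integrin beta subunit known from the midgut, had 18.6, 3.49 and 0.297. Hoka was at place 24 with r = 0.994, and GATAe at place 125. Nearest to the mean profile of the pleated genes were Dyb, Amph, Frl, CG12581 and rdgB, with r from 0.998 to 0.999. Dyb, which encodes dystrobrevin, had 14.7 mean coding TPM in PVs with LpWF, 123 in crop and 2.12 in SG, and Amph, which encodes amphiphysin, had 27.1, 186 and 6.19. The muscle gene Mhc was at place 2169 with r = 0.943 to the pleated profile. By Spearman correlation 0 of the 5 genes nearest the smooth profile and 1 of the 5 nearest the pleated profile were the same.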

How the data were processed

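Bulk RNA was measured in 16 libraries, grouped by the GEO labels. Single-end reads of 75 bases were processed by the authors with a Nextflow workflow (revision 3.11.1) and Salmon on Ensembl release 98 of build BDGP6. The deposited estimated counts per transcript are not normalized between libraries. The deposited TPM values were scaled by the authors over all transcripts, noncoding RNA included. For 33704 transcripts both were summed per gene with Ensembl release 115 (17039 genes), and 271 transcripts without a gene there (0.128 to 0.257% of reads) were left out.

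Counts were rounded and tested over all genes with edgeR 4.0.16 (R 4.3.3): TMM, filterByExpr, robust quasi-likelihood F tests, Benjamini-Hochberg adjustment, called under 0.05, using only the libraries of the 2 groups compared. Shares of coding sequences were compared by exact permutation tests (scipy 1.17.1). Python 3.11.15, pandas 2.3.3, numpy 2.4.6 and matplotlib 3.10.9 made the other values and figures. The fits and tests were tested on simulated data. Alternatives were DESeq2 1.42.0 and its size factors, other filters, length offsets, a replicate block, subsets by ribosomal RNA, other scales and leaving out each library.

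The 10 members and the lists of other junction genes and markers were chosen with earlier results of these data known. Named are all members, the genes of each junction list with the largest change, and the 5 genes most like each kind. ADPS matched no gene. The labels do not say that replicates came from separate cultures, so p-values measure the spread between these libraries. No library was a copy of another: between replicates the lowest variance of the counts was 21.73 times that of counting alone. The study's single-cell data were not analysed here.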

Additional observations from a re-analysis of the deposited data

Results flagged for a closer look

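Lac in PV with LpWF had 1 library apart from the others of its group. Replicate 1 was at 16.04 coding TPM and the other 4 libraries at 18.9 to 19.7, and its gap to the nearest was 0.77 of the whole range, above the limit of Dixon's test for 5 values. This was the only such value among 30 groups of values examined in the PV libraries, and chance gives about 1 in 20.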

How the results depend on the processing

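No member changed direction under any alternative fit in any of the 4 comparisons. In crop against PV with LpWF all 10 members passed under all 11 other settings and in all 8 fits without a library. In those fits 4260 to 5405 genes were called, of 8242 to 13781 tested. Against PV with LpWF the SG calls stood wherever a member was tested (7 members with 10 counts in every library). In SG against crop 6 members passed under that filter and 9 or 10 elsewhere, the changes being those of Nrx-IV and sinu given above. In PV with LpWF against axenic PV no member passed in any of 22 fits, 1 of which had a single axenic library and says nothing of stability. Over all genes 1 was called there, against 51 with DESeq2, 34 with the replicate block, 4 in a fit over all 16 libraries, 2 with a term for ribosomal RNA over 25%, 0 in the libraries over 25% alone (134 at an unadjusted p under 0.05 in edgeR) and 1 to 10 when a library was left out, the 10 being without LpWF replicate 5. The cause was not tested. In SG against crop the median over all tested genes moved on the log2 scale from -0.04 to -0.37 with DESeq2, which tests more genes. Same-numbered libraries did not all deviate together (correlations of -0.03 to 0.58 between the PV groups, -0.01 to -0.10 between crop and PV), so the numbers were not used as pairs. With the replicate block 4265 genes were called in crop against PV, and it changed no call on a member.

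The share of the smooth genes was 49.8, 56.03, 2.25 and 0.161% in axenic PV, PV with LpWF, crop and SG from estimated counts, which weigh long genes more, and 78.5 and 82.3% in the PV groups without Nrg and Lac. The difference of the leading cora class crossed 0 when a library was left out, from -3.69 to 1.15 percentage points in crop against PV and from -2.18 to 2.66 in PV with LpWF against axenic PV. Depth limits the SG values of the smooth genes, at 1 to 16 estimated counts a library.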
